A study of Rattus norvegicus with 24 samples.

Results

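Calca, Calcb, Ret, Chga, Chgb, Scg2 and Syp are genes of the calcitonin-producing C cell and of neuroendocrine cells in general. They were taken as the non-control array probes whose gene name equals one of these symbols, ignoring case. This gave 7 genes with 10 probes, of 20286 genes tested and 30367 probes on the array, and all 10 probes passed the filter on dim probes. The series compared thyroid glands of RccHan Wistar rat pups on 24 Agilent 1-colour arrays, 4 in each of 6 groups. The groups were acrylamide and control females at night, acrylamide and control males at night, and acrylamide and control females in the morning. Acrylamide groups received 3 mg of acrylamide per kg body weight per day in drinking water, through the dam from gestational day 6 and then directly until about postnatal day 35, and control groups drank tap water. Night glands were taken at 10 PM and morning glands at 10 AM. All animals were of the same strain, with no transgene or surgery in the labels.

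C cells, or parafollicular cells, lie among the thyroid follicles and store calcitonin, a peptide that lowers blood calcium, in dense-core granules. The Calca primary transcript is spliced in alternative ways, to a calcitonin messenger in C cells and to a messenger for calcitonin gene-related peptide (CGRP) mainly in neurons, and Calcb encodes another CGRP. Chga, Chgb and Scg2 encode the granins chromogranin A, chromogranin B and secretogranin II, acidic proteins of the granule core that parathyroid, pituitary and adrenal medullary cells also make. Syp encodes synaptophysin, a membrane protein of small secretory vesicles. Ret encodes the receptor tyrosine kinase that GDNF family ligands reach through GFRα co-receptors, and its activating mutations are known from medullary thyroid carcinoma, a tumour of C cells.

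The probes are 60 bases long, and their positions are on the rn4 build as the array annotation gives them. The first 30 bases of the 3 calcitonin and CGRP probes are shown because 2 of them separate the splice products of 1 gene and the third belongs to the neighbouring gene. They lie at chr1:172688192-172688251 on the minus strand for the calcitonin transcript (transcript variant 1), at chr1:172686203-172686262 on the minus strand for the CGRP transcript (variant 2), and at chr1:172780881-172780940 on the plus strand for Calcb.
Calca, calcitonin transcript: atgggttactttcatgaggcaaaggatggt
Calca, CGRP transcript: tgtgactcaatggaaccatatgcttaaaga
Calcb: aaatatgatggtgtctcctgctggcatcct
The 2 Calca probes start 1989 bases apart. Over their full length the longest run of identical bases was 6 between the 2 Calca probes, 7 between the calcitonin probe and the Calcb probe, and 5 between the CGRP probe and the Calcb probe. Ret had 3 probes on the minus strand of chromosome 4, at 154448663 to 154448722 for the first transcript variant, at 154450996 to 154451055 for the second and at 154468435 to 154468494 for both. Of these 3, the probe for the first variant had the highest mean and stood for the gene. The other genes had 1 probe each, on chromosome 6 for Chga (126832496 to 126832555), 3 for Chgb (120584813 to 120584872), 9 for Scg2 (78762735 to 78762794) and X for Syp (26890644 to 26890703).

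Levels below are log2 of the scanner's processed intensity minus the array's 75th percentile, so that 0 is that percentile, and a level cannot be set against that of another probe. The share of spots clearly above background was 71.5% to 82.3% per array. Night arrays had no saturated spots, while morning arrays, scanned in another session with a lower limit, had 188 to 469 each. The calcitonin probe was saturated on all 4 morning control arrays and on 3 of the 4 morning acrylamide arrays, so its morning levels are lower limits. Acrylamide replicate 1 of females in the morning stood apart: thyroglobulin (Tg) was at -0.85 there, against 6.43 to 7.04 on the other 3 acrylamide arrays and 6.77 to 7.51 on control arrays, where all but that array were saturated. The mean of 11 follicular genes was -3.37 on that array. Parathyroid hormone (Pth) was low on 4 arrays: acrylamide males at night replicate 4 (-0.23), acrylamide females in the morning replicates 1 (-5.54) and 3 (-2.96), and control females in the morning replicate 1 (2.95). Pth was at 6.37 to 8.47 on the other 20 arrays. Results that rest on these arrays are given with and without them, and in whole glands fewer cells of a type and less RNA per cell cannot be told apart.

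**Figure D1:**
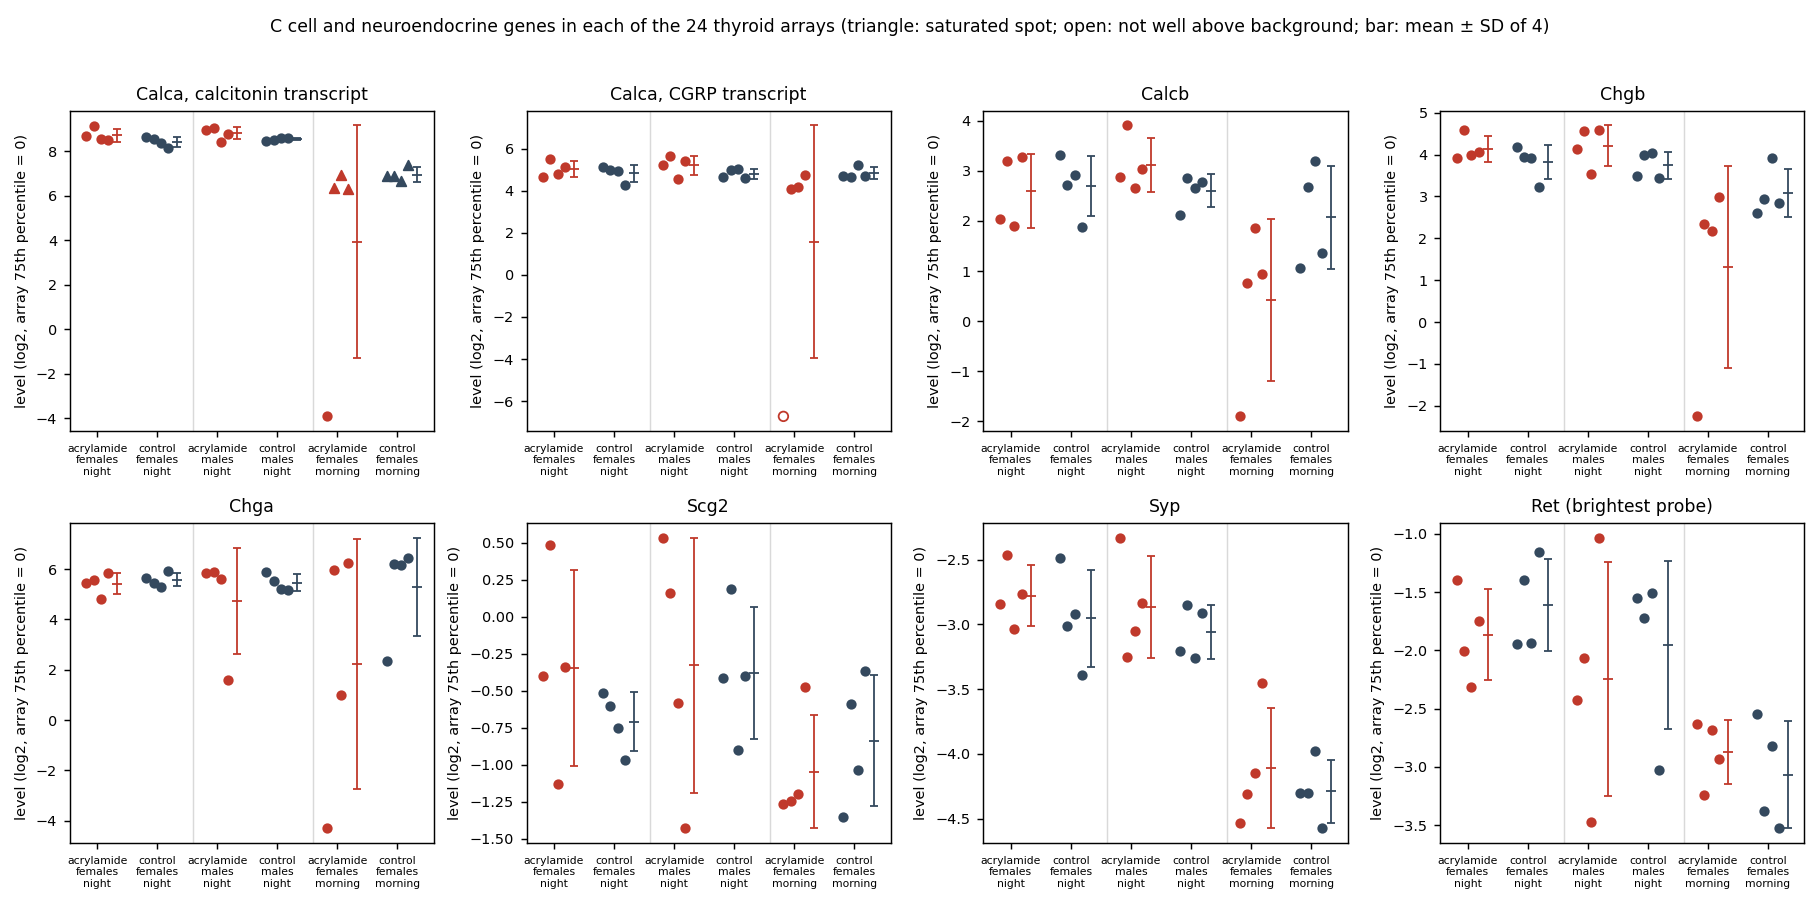
Level of the 7 genes on each array (log2, 75th percentile of the array at 0), with acrylamide groups in red left of their controls in blue; Calca has a panel for each transcript, and Ret is shown by its brightest probe. Bars give the mean ± SD of 4 arrays, triangles mark saturated spots and the open circle a spot not well above background. Calca, Calcb, Chga and Chgb have their lowest point on acrylamide replicate 1 of females in the morning, while Ret, Scg2 and Syp stay within reach of the other morning arrays there.

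In females at night none of the 7 genes passed the threshold with acrylamide (limma, adjusted p under 0.05), against 0% of all genes tested. At an unadjusted p under 0.05 the count was also 0 of 7, against 1.87% of all genes. The calcitonin transcript was at 8.69, 9.15, 8.55 and 8.49 in acrylamide females at night, against 8.63, 8.56, 8.37 and 8.15 in control females at night. The groups overlapped, and the difference was 0.29 log2 (SE 1.42, adjusted p = 1 in limma). That SE comes from a variance shared with the morning array that stood apart; with only these 8 arrays the SE was 0.17 and the adjusted p 0.634. The CGRP transcript was at 4.65, 5.49, 4.81 and 5.15 with acrylamide, against 5.15, 4.98, 4.95 and 4.26 in controls. Calcb, whose product is the other CGRP, spread over 1.90 to 3.27 with acrylamide and 1.88 to 3.31 in controls, almost the same range.

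Among the granins, Chgb was at 3.91, 4.58, 4.0 and 4.05 in acrylamide females at night and 4.18, 3.94, 3.93 and 3.23 in controls. Chga lay between 4.83 and 5.83 with acrylamide, and between 5.29 and 5.92 in controls. Scg2 was at -0.40, 0.48, -1.13 and -0.34 with acrylamide, against -0.51, -0.60, -0.75 and -0.97 in controls. For Scg2, 3 of the 4 acrylamide arrays were above every control and 1 was below every control, and the difference was 0.36 log2 (SE 0.37, adjusted p = 1). The array with the highest Scg2 also had the highest Pomc, a pituitary hormone gene, which was at -0.68 to 4.81 in acrylamide females at night and -0.64 to -0.18 in controls. For the 7 pituitary markers tested of 8 listed, the mean was -5.33 to -1.67 with acrylamide and -5.44 to -4.17 in controls. Over the 16 night arrays the deviations of Scg2 and of that mean had r = 0.36 (permutation p = 0.33, adjusted p = 0.748; rho = 0.37, p = 0.251). The mean of 8 skeletal muscle genes was 3.22 to 6.66 with acrylamide and 6.23 to 6.92 in controls. Syp averaged -2.78 ± 0.24 with acrylamide and -2.95 ± 0.37 in controls (SD, n = 4 each), and Ret -1.87 ± 0.39 and -1.61 ± 0.39.

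In males at night the count was again 0 of 7, both at the adjusted threshold (0% of all genes) and at an unadjusted p under 0.05 (13.6% of all genes). The calcitonin transcript was at 8.96, 9.05, 8.42 and 8.79 in acrylamide males, against 8.47, 8.51, 8.59 and 8.60 in control males. Of the acrylamide arrays 3 were above the controls and 1 below them, with a difference of 0.26 log2 (SE 1.42, adjusted p = 0.946; SE 0.17 and adjusted p = 0.581 with only these 8 arrays). For the CGRP transcript the levels were 5.23, 5.63, 4.57 and 5.41 with acrylamide, and 4.65, 4.97, 5.05 and 4.59 in controls. Chgb was at 4.13, 4.55, 3.54 and 4.60 in acrylamide males and 3.49, 3.99, 4.04 and 3.44 in control males. Replicate 3 was the lowest acrylamide array for Calca by both probes and for Chgb. Calcb was at 2.87, 3.91, 2.66 and 3.04 with acrylamide, against 2.12, 2.86, 2.66 and 2.78 in controls, a difference of 0.51 log2 (SE 0.61, adjusted p = 0.7).

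Chga was at 5.84, 5.88, 5.60 and 1.59 in acrylamide males at night, against 5.90, 5.52, 5.22 and 5.16 in control males. The low value is on replicate 4, the only night array low in Pth, and the difference of -0.72 log2 (SE 1.55) was 0.32 (SE 0.22, adjusted p = 0.703) without the 4 arrays low in Pth. Calca and Chgb were not low on that array. Scg2 was at 0.53, 0.16, -0.58 and -1.42 with acrylamide, and -0.41, 0.19, -0.90 and -0.40 in controls. The mean of the pituitary markers was -3.23 to -0.24 in acrylamide males and -5.40 to -4.27 in control males, and 0 of the 7 passed in either sex. The skeletal muscle mean was 1.12 to 7.0 in acrylamide males and 6.39 to 7.47 in control males. Syp averaged -2.87 ± 0.40 in acrylamide males and -3.06 ± 0.21 in control males (SD, n = 4 each).

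Ret was at -2.42, -2.07, -3.47 and -1.03 in acrylamide males at night, against -1.55, -1.73, -1.51 and -3.03 in control males. Both groups were wide, and the difference was -0.30 log2 (SE 0.40, adjusted p = 0.737 by probe). The dim probe for both Ret variants averaged -6.09 ± 1.67 in acrylamide males and -4.61 ± 0.15 in control males, a difference of -1.48 log2 (SE 0.52, adjusted p = 0.352). It was well above background on 2 of the 4 acrylamide arrays and on all 4 control arrays. The probe for the second variant gave -0.19 log2 (SE 0.26), so the 3 probes shared a sign but not a size.

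The ratio of the 2 Calca transcripts was compared at night, where neither probe was saturated. The CGRP probe minus the calcitonin probe, taken within each array, was -3.69 ± 0.29 in acrylamide females and -3.59 ± 0.21 in control females (SD, n = 4 each). In males at night it was -3.60 ± 0.23 with acrylamide and -3.73 ± 0.23 in controls. The differences were -0.10 and 0.13 log2, with 2-sided exact permutation p = 0.543 and p = 0.486, where the design allows no p below 0.0286. The measure was chosen after the data were seen and could not be taken in the morning, where the calcitonin probe was saturated.

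In females in the morning none of the 7 genes passed the adjusted threshold either, against 2.1% of all genes tested (0.434% higher and 1.67% lower). At an unadjusted p under 0.05 there were 3 of 7 (Calca, Calcb and Chgb), against 23.9% of all genes. Calca counts here by its saturated probe, and its CGRP probe lay on the same side of that threshold. With only the morning arrays in the fit, none of the 7 genes was under that threshold. The limma p was then 0.202 for Calca by its saturated probe, 0.0727 for Calcb and 0.126 for Chgb. The median difference of the 7 genes was -1.66 log2, and that of all genes -0.11. The peptide genes Calca and Calcb and the granins Chga and Chgb averaged lower with acrylamide, and for all 4 the lowest value lay on the array that stood apart.

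The calcitonin transcript was at -3.91, 6.36, 6.95 and 6.31 in acrylamide females in the morning, against 6.88, 6.88, 6.65 and 7.40 in control females in the morning. The first of these values is the only one not saturated, so no difference is given for this probe. By the unsaturated CGRP probe the levels were -6.73, 4.11, 4.16 and 4.74 with acrylamide and 4.68, 4.67, 5.25 and 4.73 in controls. The first acrylamide array was not well above background for that probe; the other 3 overlapped with the controls only through the highest of them. The difference by this probe was -3.26 log2 (SE 1.51, adjusted p = 0.199). Without the array that stood apart it was -0.50 log2 (SE 0.27, adjusted p = 0.473), an alternative chosen after seeing the data.

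Calcb was at -1.90, 0.77, 1.85 and 0.95 in acrylamide females in the morning, against 1.06, 2.67, 3.20 and 1.35 in controls. The difference was -1.66 log2 (SE 0.61, adjusted p = 0.116), and -0.88 log2 (SE 0.49, adjusted p = 0.478) without replicate 1. When acrylamide replicate 3 was left out instead, Calcb passed the threshold, with -2.13 log2 and an adjusted p of 0.0344. Chgb was at -2.25, 2.35, 2.19 and 2.98 with acrylamide, against 2.59, 2.95, 3.91 and 2.84 in controls. Its difference was -1.76 log2 (SE 0.70, adjusted p = 0.142), and -0.57 log2 (SE 0.32, adjusted p = 0.48) without replicate 1. Leaving out acrylamide replicate 4 instead put Chgb past the threshold, with -2.31 log2 and an adjusted p of 0.0463. In both cases the array that stood apart was among the 3 that stayed.

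Chga was at -4.31, 5.96, 0.99 and 6.23 in acrylamide females in the morning, against 2.36, 6.19, 6.18 and 6.44 in controls. The 3 low values are the 3 morning arrays low in Pth, and they belong to both groups. The difference was -3.07 log2 (SE 1.55, adjusted p = 0.23), and -0.17 log2 (SE 0.27, adjusted p = 0.745) without the 4 arrays low in Pth.

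On acrylamide replicate 1, Scg2, Syp and the brightest probe of Ret were closer to the other morning arrays. Scg2 was at -1.27, -1.25, -1.20 and -0.48 with acrylamide, and at -1.35, -0.59, -1.04 and -0.37 in controls. Syp was at -4.53, -4.31, -4.14 and -3.46, against -4.30, -4.30, -3.98 and -4.58 in controls. Ret by its brightest probe was at -2.63, -3.24, -2.69 and -2.93, against -2.55, -3.37, -2.82 and -3.53 in controls. On the array where the calcitonin transcript was far below all others, these 3 probes were inside the range of the controls. The probe for the second Ret variant was not: it was at -3.24 on that array, the lowest of the 8 morning arrays, and below the control range of -2.88 to -2.25. The Ret probe for both variants, not well above background on any morning array, was at -7.29 there, against -7.21 to -6.05 in controls. The differences of Scg2, Syp and Ret by its brightest probe were -0.21, 0.18 and 0.20 log2 (SE 0.37, 0.23 and 0.40).

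The morning arrays lay on 2 slides. With all arrays kept, the sign of Calca, Calcb, Chga and Chgb was the same within each slide. On the slide with 2 acrylamide and 3 control arrays, which does not hold the array that stood apart, the differences were -0.73 log2 for the CGRP transcript, -1.0 for Calcb, -0.88 for Chgb and -1.43 for Chga. That slide holds arrays low in Pth from both groups, with Chga at 0.99 on acrylamide replicate 3 and 2.36 on control replicate 1. With 2 acrylamide arrays and 1 control array on the other slide the differences were -5.72 log2 for the CGRP transcript, -1.83 for Calcb, -2.48 for Chgb and -5.48 for Chga. That slide holds the array that stood apart. Its other acrylamide array and its control array were at 4.74 and 4.73 for the CGRP transcript and 2.98 and 2.84 for Chgb. For Calcb they were at 0.95 and 1.35, and for Chga at 6.23 and 6.44. The negative sign of the CGRP transcript and of Chgb on that slide thus rests on the array that stood apart. With slide as a term of the fit the differences were -1.30 log2 for Calcb (SE 0.56, adjusted p = 0.227) and -1.45 log2 for Chgb (SE 0.69, adjusted p = 0.269).

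**Figure D2:**
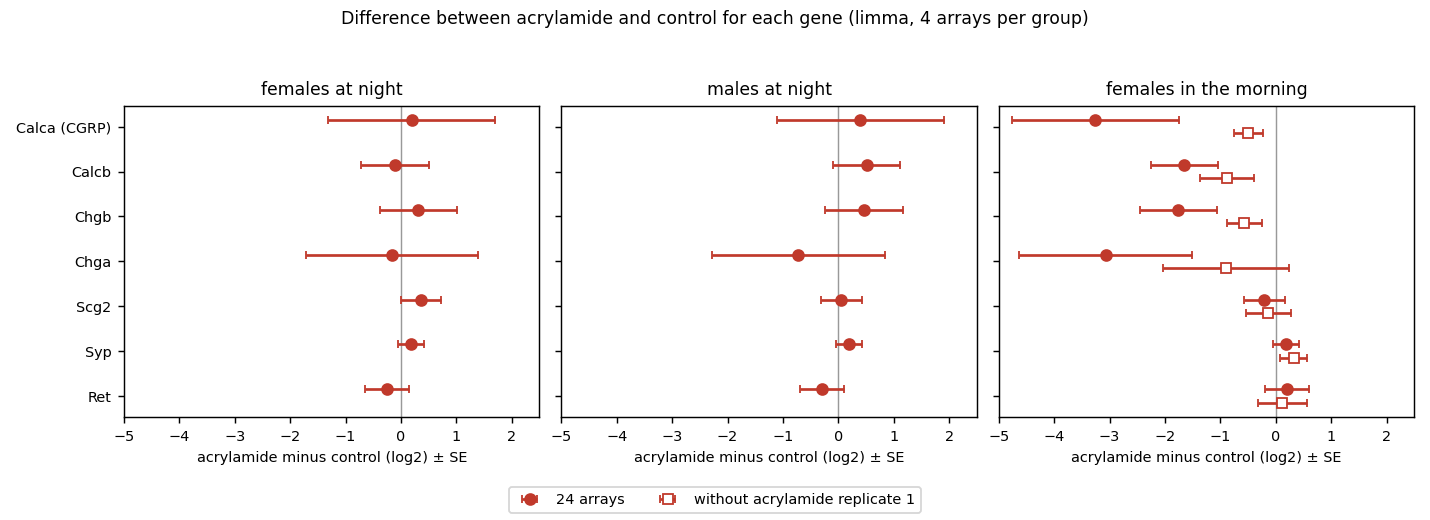
Acrylamide minus control for each gene (log2, horizontal axis, bars ± SE) in the 3 strata, with Calca by its CGRP probe and Ret by its brightest probe. Filled circles use all 24 arrays, and open squares leave out acrylamide replicate 1 of females in the morning, where Calca is at -0.50 in place of -3.26 and Chgb at -0.57 in place of -1.76.

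The acrylamide effect was also compared between sexes and between times, and none of the 7 genes passed in either comparison, nor did any other gene (0%). At an unadjusted p under 0.05 there were 0 of 7 for the effect in males minus that in females at night (2.2% of all genes). For the effect in the morning minus that at night in females there was 1 of 7 (16.3% of all genes), Chgb, with -2.07 log2 (SE 0.99, adjusted p = 0.303). This Chgb difference rests in large part on the morning array that stood apart. With that array dropped it was -0.89 log2 (SE 0.43, adjusted p = 0.528), an alternative chosen after seeing the data. These comparisons share their arrays with the ones above.

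Between control males and control females at night none of the 7 genes passed (0 of 7 at an adjusted or an unadjusted p under 0.05, against 0.00986% and 1.63% of all genes). The CGRP transcript averaged 4.81 ± 0.23 in males and 4.83 ± 0.40 in females, and Chgb 3.74 ± 0.32 and 3.82 ± 0.41 (SD, n = 4 each). The largest difference of the 7 was that of Ret, at -0.34 log2 (SE 0.40). The sexes were on separate slides, so sex and slide cannot be told apart.

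Between night and morning in control females, Ret and Syp passed the threshold and both were higher at night, which makes 2 of 7 against 48.6% of all genes (20.8% higher at night). Night and morning also differ in slide and scan session, and these cannot be told apart. Syp was at -2.49, -3.01, -2.92 and -3.39 at night, against -4.30, -4.30, -3.98 and -4.58 in the morning. Groups that did not overlap, with night above morning, were found for Ret and Syp, 2 of the 6 genes other than Calca, against 26.7% of all genes. Calca is left out of this count because its calcitonin probe was saturated in the morning. The Syp difference was 1.34 log2, or 2.52-fold (SE 0.23, adjusted p = 7.63e-05). With normexp background correction, which also adds an offset of 50 to the intensities, it was 0.16 log2 (adjusted p = 0.41) and the call was lost; the parts of the correction and of the offset were not tested separately. Ret was at -1.95, -1.40, -1.94 and -1.16 at night, against -2.55, -3.37, -2.82 and -3.53 in the morning. Its difference was 1.46 log2, or 2.74-fold (SE 0.40, adjusted p = 0.00482), and 0.74 log2 with normexp (SE 0.28, adjusted p = 0.0296). The probe for the second Ret variant gave 0.51 log2 (SE 0.26, adjusted p = 0.109). The probe for both variants gave 1.75 log2 (SE 0.52, adjusted p = 0.00899), but was well above background on none of the morning arrays.

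The CGRP transcript of Calca had nearly equal means at both times, 4.83 ± 0.40 at night and 4.83 ± 0.28 in the morning (SD, n = 4 each), a difference of 0.00 log2 (SE 1.51). The calcitonin transcript could not be compared between the times, since its morning spots were saturated at a lower limit of the scanner. Chgb averaged 3.82 ± 0.41 at night and 3.07 ± 0.58 in the morning, and Calcb 2.70 ± 0.60 and 2.07 ± 1.03. Without the 4 arrays low in Pth, an alternative chosen after seeing the data, Chga passed the threshold as lower at night (-0.69 log2, SE 0.22, adjusted p = 0.0172). In that alternative 10048 of 20286 genes tested passed, 5639 of them lower at night. The 4 arrays left out are also those lowest in Chga. Without them Chga stood at 5.29 to 5.92 at night and 6.18 to 6.44 in the morning.

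Genes that act with the 7 were counted by lists. Of the 7 genes tested of 8 RET ligands and co-receptors listed, 2 fell with acrylamide in females in the morning, and all 7 had a negative difference, with a median of -0.75 log2, against -0.11 over all genes. Of all genes tested 1.67% fell in this comparison, and of the 48 genes tested of the 5 lists 3 did. Gfra1, the co-receptor that binds GDNF, was at -4.68, -3.06, -2.93 and -2.20 in acrylamide females, against -2.04, -1.40, -2.01 and -1.96 in controls. The difference was -1.36 log2 (SE 0.34, adjusted p = 0.044). Gfra2, the co-receptor that binds neurturin, was at -0.82, 0.24, 0.34 and 1.44, against 1.69, 1.55, 1.39 and 1.56 in controls, a difference of -1.25 log2 (SE 0.30, adjusted p = 0.0414). Without acrylamide replicate 1 neither passed, with -0.88 log2 (SE 0.24, adjusted p = 0.137) for Gfra1 and -0.87 log2 (SE 0.25, adjusted p = 0.144) for Gfra2. In that fit Gfra4 had a positive difference (0.08 log2), and the other genes tested of this list had -0.88 to -0.19 log2. With only the 8 morning arrays in the fit no gene passed in this comparison, Gfra1 and Gfra2 included. Follicular genes were low on the same array, with a mean of -3.37, 1.36, 1.16 and 1.89 in acrylamide females and 1.82 to 2.25 in controls, and their part was not tested.

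Of 9 genes tested of 11 for vesicle docking and release, 1 fell in the morning with acrylamide, against 1.67% of all genes. It was Cplx2, a complexin that binds the fusion machinery, at -2.11, -0.81, -0.07 and -0.84 in acrylamide females, against 0.03, 0.27, 0.58 and 0.34 in controls (-1.26 log2, SE 0.30, adjusted p = 0.0414). It too did not pass without replicate 1 (-0.88 log2, adjusted p = 0.137) or with only the morning arrays. None of the 11 granule proteins and processing enzymes, 15 neuroendocrine regulators or 6 calcitonin and CGRP receptor genes passed in the morning. For the granule genes the smallest p-values were those of Scg5, the chaperone of prohormone convertase PC2 (-1.76 log2, SE 0.63, adjusted p = 0.11), and Scg3, a granin (-1.97 log2, SE 0.72, adjusted p = 0.117). Among the regulators, Hes6 had -0.55 log2 (adjusted p = 0.114). For the receptors the smallest were those of Ramp2, a receptor activity-modifying protein (0.47 log2, adjusted p = 0.127), and Crcp (-0.38 log2, adjusted p = 0.22). Without acrylamide replicate 1 the differences were -0.67 log2 for Scg5, -0.74 for Scg3, -0.33 for Hes6, 0.28 for Ramp2 and -0.24 for Crcp. At night no gene of these 5 lists passed with acrylamide in either sex.

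Between night and morning in control females, more genes of these lists passed. Ramp2 and Ramp3, 2 of the 6 receptor genes, were higher at night by 0.89 and 1.24 log2. Of the 9 vesicle genes 5 passed, with Vamp2 (1.15), Rab3a (1.42), Sv2a (0.94) and Stx1a (0.68 log2) higher and Unc13a (-0.87 log2) lower at night. Among granule genes Ptprn (1.53) and Pcsk1n (1.29 log2) were higher and Ptprn2 (-1.85 log2) lower. The RET list had Gfra4, the persephin co-receptor (1.48), and Gfra2 (0.77 log2) higher and Pspn, or persephin (-1.43 log2), lower. Of the 15 regulators, those that passed included Isl1 (1.20), Uchl1 (0.72) and Hes6 (0.60 log2), which were higher, and Grp (-2.72), Foxa1 (-1.48), Insm1 (-1.29), Slc18a1 (-1.28) and Ncam1 (-1.07 log2), which were lower at night. Over the 5 lists 22 of 48 genes tested passed, which stands beside 48.6% of all genes.

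How the 7 genes moved together was measured over arrays, as deviations from the group means, for all 21 pairs (permutations within groups, 100000 draws, 2-sided, Benjamini-Hochberg over the 21). With the calcitonin probe standing for Calca, 1 pair passed, Calcb with Chgb (r = 0.82, permutation p = 0.00094, adjusted p = 0.0197; rho = 0.75, p = 0.00023, adjusted p = 0.00483). Leaving out the 2 arrays farthest from the Calcb median gave r = 0.63. On the 16 night arrays and on the 8 morning arrays taken alone no pair passed, and none did without the morning acrylamide replicate 1. Calca with Chgb had r = 0.92 by the calcitonin probe (permutation p = 0.0693, adjusted p = 0.207; rho = 0.65, p = 0.0198), but r = 0.26 without the 2 farthest arrays.

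The calcitonin probe was saturated in the morning. The 2 Calca probes also differed in the pairs that passed at night, where neither was saturated, and the reason was not tested. With the CGRP probe standing for Calca, a choice made after seeing the data, 4 of 21 pairs passed. Calca and Chgb then had r = 0.96 (permutation p = 1e-05, the smallest these draws can give, adjusted p = 0.00021) and rho = 0.96 (p = 2e-05, adjusted p = 0.00042). This pair kept r = 0.92 without the 2 farthest arrays, r = 0.92 without acrylamide replicate 1 and r = 0.95 without the 4 arrays low in Pth. On the 16 night arrays alone r was 0.96 (permutation p = 2e-05, adjusted p = 0.00042), and on the 12 control arrays alone 0.94 (permutation p = 0.00166, adjusted p = 0.0205). Calca and Calcb had r = 0.75 (permutation p = 0.00049, adjusted p = 0.00514; rho = 0.75, p = 0.00025), and 0.59 without the 2 farthest arrays. The other 2 were Calcb with Chgb, and Chga with Scg2 (adjusted p = 0.0355), which had r = 0.51 and an adjusted p of 0.172 by permutation without the 4 arrays low in Pth. Calca by its CGRP probe, Calcb and Chgb thus varied together between arrays of the same group, also where the array that stood apart is absent. With the calcitonin probe no pair passed without that array, and the spread between arrays may be partly technical.

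Chga did not belong to that set on the same arrays. Without acrylamide replicate 1, its r was 0.08 with Calca by the CGRP probe (permutation p = 0.756; rho = 0.13, p = 0.585), 0.06 with Calcb and 0.16 with Chgb. The other arrays low in Pth were still among these and weigh on these r. Chga was instead low on each of the 4 arrays low in Pth, at -4.31, 0.99, 1.59 and 2.36, against 4.83 to 6.44 on the other 20 arrays, with no overlap. Because these arrays fall apart from the rest, a relation was taken only within the 20. There Chga had r = 0.67 with the mean of the parathyroid genes Pth, Gcm2 and Casr (permutation p = 0.00971; rho = 0.66, p = 0.00938), which did not pass after adjustment over all 77 relations of 7 genes with 11 marker lists (adjusted p = 0.187). On acrylamide males at night replicate 4 and control females in the morning replicate 1, Chga was low while the CGRP transcript was at 5.41 and 4.68, inside the range of the other arrays.

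Scg2 had r = 0.55 with the parathyroid mean within the same 20 arrays (permutation p = 0.0609, adjusted p = 0.521; rho = 0.49, p = 0.0918). Chgb and the mean of 6 Schwann cell genes had r = -0.56 over 24 arrays (permutation p = 0.00105, adjusted p = 0.0272; rho = -0.59, p = 0.00448, adjusted p = 0.115), and -0.58 without the 2 arrays farthest from the Chgb median. This relation passed by r and not by rho, and without the 4 arrays low in Pth it had r = -0.54 (permutation p = 0.0492, adjusted p = 0.521). Without acrylamide replicate 1 of the morning females the r was -0.61 (permutation p = 0.0133, adjusted p = 0.29). Ret had no pair that passed, with r between -0.38 and 0.02 against the other 6 genes. Syp had its highest r of 0.51 with Chgb (permutation p = 0.104, adjusted p = 0.243; rho = 0.48, p = 0.0396).

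**Figure D3:**
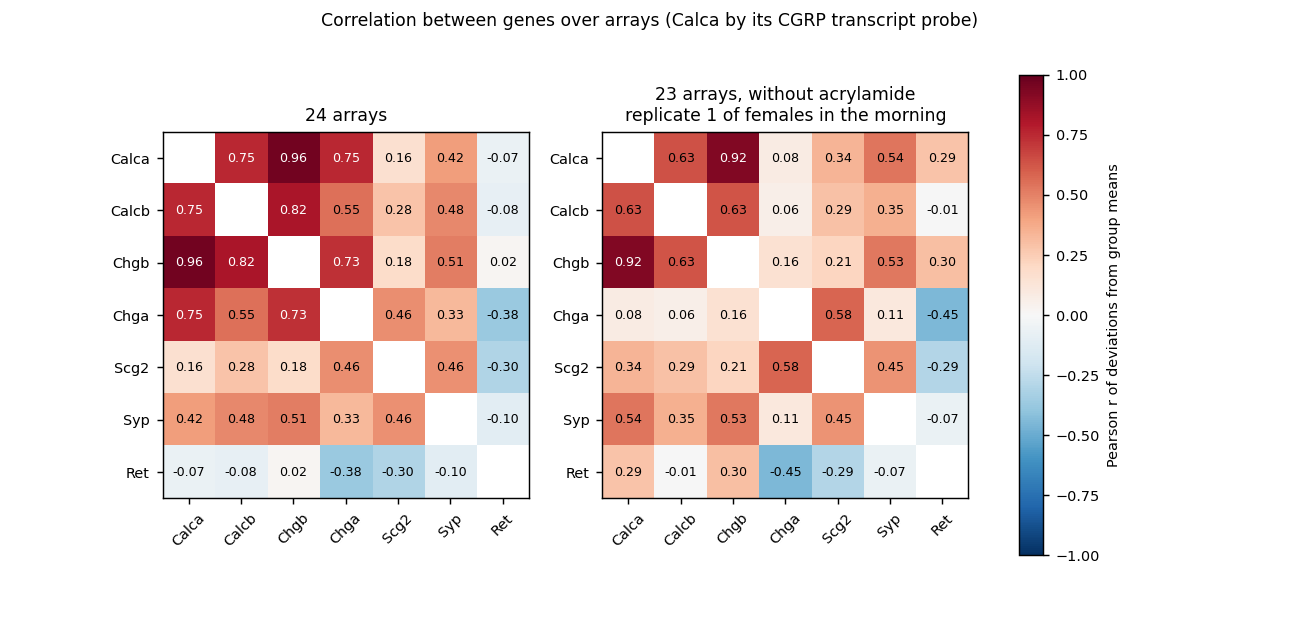
Pearson r of deviations from group means for each pair of genes, with Calca by its CGRP probe, over 24 arrays and over 23 without the morning acrylamide replicate 1. Among them, Calca, Calcb and Chgb have r of 0.63 to 0.92 without that array, while Chga has r between 0.06 and 0.16 with them.

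The tested genes whose deviations were most like each of the 7 were named by rule, the 3 with the highest r over 24 arrays. For Chgb these were Resp18 (r = 0.99), a neuroendocrine-specific granule protein, Hoxb7 (0.99) and Scg5 (0.97), which had r of 0.93, 0.91 and 0.79 without acrylamide replicate 1. Calcb was most like Pcsk1 (0.87), the prohormone convertase PC1, with Agr3 (0.85) and Cbln4 (0.85) next, and Pcsk1 kept 0.74 without that array. Chga was most like Casr (0.96), the calcium-sensing receptor of parathyroid and C cells, Dmrtc1a (0.95) and Pth (0.94), with 0.93, 0.90 and 0.96 without that array, the other 3 arrays low in Pth still among them. Syp was most like Pcsk1n (0.84), which encodes the convertase inhibitor proSAAS, Aplp1 (0.81) and Carmil3 (0.81), and Pcsk1n had 0.92 without that array. For Scg2 they were Pcsk4 (0.81), a transcript known only by its Ensembl number (0.78) and Mansc4 (0.76). Ret was most like an unnamed transcript cluster (0.84), Erlin1 (0.82) and Ptn (0.81), a pleiotrophin.

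Calca by the calcitonin probe had Tg (0.98) and C10h16orf89 (0.98) among the 3 genes most like it. Without acrylamide replicate 1 these became 0.54 and -0.24, so the likeness to C10h16orf89 rests on that array, and that to Tg in large part. Arrays share these values through their 75th percentile and their saturation, and all of these r describe the 24 arrays only.

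**Figure D4:**
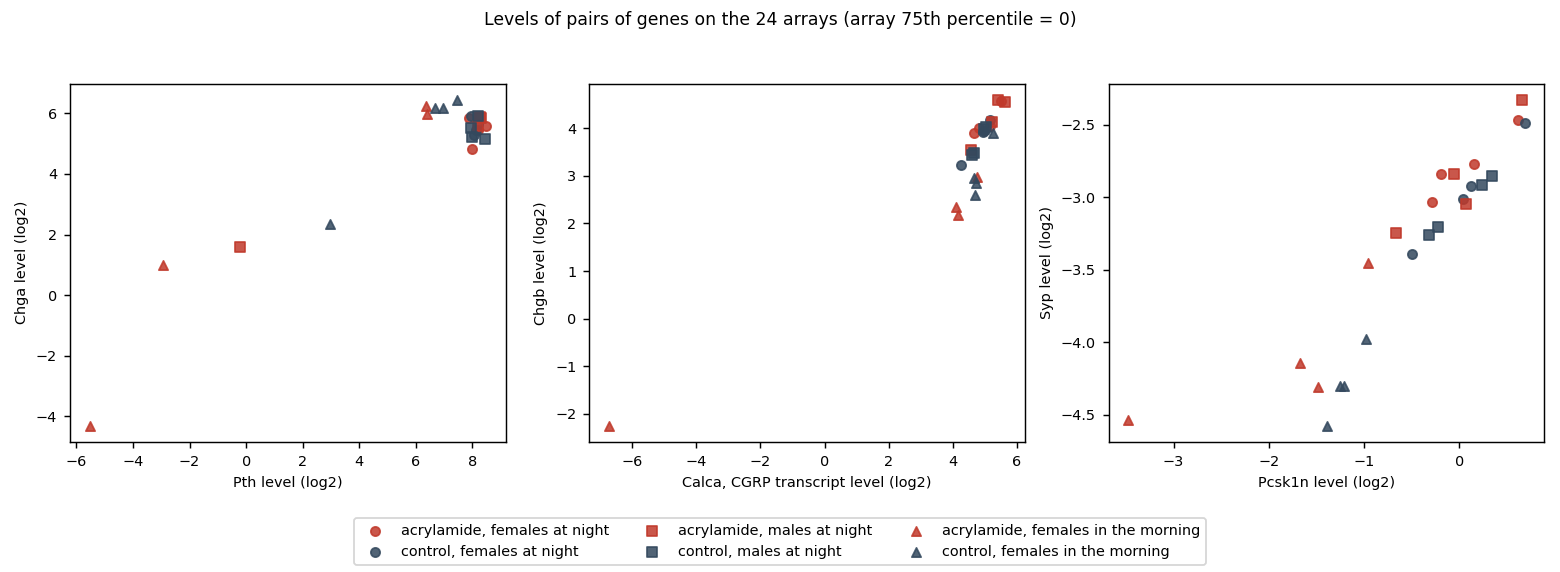
Levels on the 24 arrays (log2, array 75th percentile at 0) of Chga against Pth, Chgb against the CGRP transcript of Calca, and Syp against Pcsk1n; acrylamide in red, control in blue, circles and squares for females and males at night, triangles for females in the morning. Chga is below 3 only on the 4 arrays low in Pth, while Chgb is higher where the CGRP transcript is higher among the 23 arrays that lie together, and 1 array lies far below them in both.

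Promoters from RefSeq on GRCr8, 250 bases before to 50 after the start, were listed for 5 of the 7 genes (Calca, Chgb, Ret, Scg2 and Syp) and were searched on both strands for the cAMP response element TGACGTCA and for its core TGACG, which lies inside it. The 2 genes with a match are shown, with the match in capitals. Their deviations were related weakly (r = 0.34 by the CGRP probe without acrylamide replicate 1, permutation p = 0.215; rho = 0.44, p = 0.0834).
Scg2, chr9:88256966-88257005, minus strand: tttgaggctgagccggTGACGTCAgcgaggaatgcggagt
Calca, chr1:178317621-178317657, minus strand: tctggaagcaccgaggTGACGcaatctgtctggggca
The full element began 123 bases before the Scg2 start and is held by 1.83% of 33469 promoters of this length. The core began 112 bases before the Calca start and is held by 21.2%. A match is a description of letters and not of a bound site.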

How the data were processed

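Per the file headers, the scanner images were read with Agilent Feature Extraction 10.1.1.1, whose processed signal is a linear intensity corrected for background and for trends across the array; flags mark saturated spots and those well above background. The deposited series matrix holds log2 values and was used as an alternative. Spots marked as uneven or outliers were left out, log2 was taken, replicate spots were averaged and each array's 75th percentile was subtracted. Probes flagged well above background on 3 or more of a group's 4 arrays were kept (23416 of 30367), and the probe with the highest mean stood for a gene (20286). Names came from RefSeq by accession for 18005 probes, by symbol for 2671 and by synonym for 549; 9142 kept the array's name.

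A group-means model was fitted with limma 3.58.1 (R 4.3.3) to the 24 arrays together (18 residual degrees of freedom), with Benjamini-Hochberg adjustment over all genes and a threshold of 0.05; where the text gives a value for a second probe, the fit ran over all 23416 kept probes. The fit was tested on simulated data. Correlations and the exact test used numpy 2.4.6 and scipy 1.17.1. Females at night lay on slide 1, males at night on slide 2, and females in the morning on slides 3 and 4; at night controls were in row 1 and acrylamide arrays in row 2, so treatment and row cannot be told apart there. The labels do not tie replicate numbers to animals, so the p-values rest on the spread between arrays, which may be partly technical. Deviations of same-numbered arrays correlated at -0.228 to 0.354, and the numbers were not used as pairs.

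The 7 genes and the gene lists were chosen with earlier results of these data known. Named were all 7 genes, list genes that passed (where none did, the 2 with the smallest p in females in the morning), the 3 genes most like each, and markers beside the results they move with. Alternatives were other normalizations, filters, blocks and arrays left out. Some genes that these rules name are not reported here.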

Additional observations from a re-analysis of the deposited data

Results flagged for a closer look

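In 8 of 60 sets of 4 arrays (10 probes in 6 groups) the highest or lowest array lay apart from the other 3 beyond the critical value of Dixon's test, where chance flags about 5% of sets. Acrylamide replicate 1 of females in the morning was the lowest for the calcitonin probe of Calca (-3.91), the CGRP probe of Calca (-6.73) and Chgb (-2.25). Chga was lowest on acrylamide replicate 4 of males at night (1.59) and on control replicate 1 of females in the morning (2.36), both arrays low in Pth. Control replicate 3 of females in the morning was the highest for the CGRP probe (5.25), control replicate 4 of males at night the lowest for Ret (-3.03), and acrylamide replicate 4 of females in the morning the highest for Scg2 (-0.48).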

How the results depend on the processing

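In every alternative run for the comparison, 0 of the 7 genes passed in females at night, in males at night, between sexes and in both differences of the acrylamide effect. With acrylamide in females in the morning the count was 0 to 1 when single arrays were left out: 1 without acrylamide replicate 3 (Calcb) and 1 without acrylamide replicate 4 (Chgb). Over all genes the count there was 427, but 21 without acrylamide replicate 1, 2127 without replicate 3, 1700 without replicate 4 and 54 without the 4 arrays low in Pth. It was 0 with only the morning arrays, 4 with array weights, 12 with median centring and in the deposited matrix, 86 with slide as a fixed term, 98 with no filter on dim probes, 222 with normexp and 960 with quantile normalization, and 3 to 183 without single control arrays (3 without replicate 2). Between night and morning the count of the 7 genes was 2 when single arrays were left out and 1 with normexp (Ret). It was 4 without the 4 arrays low in Pth, an alternative chosen after seeing the data (Calca, Ret, Chga, Syp). Of these, Calca rests on saturated morning spots, and 10048 of 20286 genes tested passed in that alternative. With the replicate block the counts were 2 between night and morning and 0 elsewhere; the numbers paired no samples, with 2 of 12 arrays matching their own number best.

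Of 21 pairs, 1 was correlated; 0 on night arrays, 0 on morning arrays, 0 without the acrylamide arrays of males at night and 2 without those of females in the morning. With the CGRP probe of Calca, 4 passed, 3 also without the 4 arrays low in Pth, 3 on night arrays and 3 on control arrays. When the morning acrylamide replicate 1 was left out, 0 passed with the calcitonin probe and 4 with the CGRP probe.

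Signs turned only for differences that had not passed, and the cause was not tested. Under normexp, Ret in the morning was at -0.037, Syp at -0.134 and the time difference of the Syp effect at -0.276. The sex difference of the acrylamide effect turned for Ret under quantile normalization (0.067), for Calca and Ret under median centring (0.134 and 0.124) and in the deposited matrix (0.133 and 0.123). Array weights turned it for Calca (0.028), Chga (0.002) and Scg2 (0.155), and gave -0.078 for the time difference of Syp and 0.1 for Chga between sexes. Without the 4 arrays low in Pth, Chga was at 0.324 in males at night, 0.483 in the sex difference of the effect and -0.689 between night and morning, and Scg2 at 0.055 and -0.044 in the last pair.

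With single arrays left out, the sex difference of the effect ranged from -0.112 to 0.114 for Calca, -0.947 to 0.483 for Chga, -0.445 to 0.367 for Ret, -0.596 to 0.055 for Scg2 and -0.161 to 0.165 for Syp. Acrylamide against control ranged from -0.382 to 0.125 for Calcb and -0.297 to 0.038 for Chga in females at night, from -1.11 to 0.324 for Chga, -0.7 to 0.112 for Ret and -0.235 to 0.416 for Scg2 in males at night, and from -0.041 to 0.319 for Syp in the morning. Controls by sex ranged from -0.371 to 0.103 for Calcb, -0.275 to 0.04 for Chgb, -0.491 to 0.016 for Ret and -0.253 to 0.05 for Syp, night against morning from -0.689 to 0.67 for Chga and -0.044 to 0.285 for Scg2, and the time difference of Syp from -0.215 to 0.15. Of the alternatives for single genes 1071 kept direction and call. With 4 arrays a group the number of arrays limits precision, and saturation limits Calca in the morning. The Ret probe for both variants was not well above background on any morning array. Syp was well above background on all 4 arrays of every group, but its call between night and morning was lost with normexp.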
